A study of Mus musculus with 12 samples.

Results

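The genes described here are 38 genes of T and NK lymphocytes, read in the ears of mice injected with PBS, IL-17A, IL-36γ or IL-17A + IL-36γ (the combination). They are a named list out of 50684 genes of the count table: 36 were matched by the mouse symbol in a deposited table and 2 (Tcrg-C1 and Tcrg-V5, deposited as Trgc1 and Trgv5) by their GENCODE symbol. The list holds 13 pan-T genes, 3 genes of alpha-beta T cells, 4 genes of the gamma-delta receptor, 4 genes of regulatory T cells, 7 genes of cytotoxic and NK cells and 7 cytokine receptors, subset factors and homing receptors. All mice were female C57BL/6 wild type animals of 8 weeks, injected intradermally into the ear pinna in a volume of 5 µL, with 1 µg of each cytokine in PBS. Ears were taken after 4 days of consecutive treatment, and 3 of the 5 mice of each group were sequenced. No cell type was sorted, so each library mixes the resident and infiltrating cells of an ear. The libraries hold 25293468 to 34759293 counts, and all 38 genes passed the filter on low counts that left 19408 genes to be tested. Of these, 5 (Cd8a, Foxp3, Gzma, Ncr1 and Tbx21) held under 10 counts in each ear without IL-36γ and passed only through ears that received it. These 5 could be tested only because they were higher there, so their direction is not independent of the filter.

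T cells recognise antigen with a receptor made of an alpha and a beta chain or of a gamma and a delta chain. Either receptor needs the CD3 complex to reach the surface and to signal. Mouse epidermis is unusual in that its resident T cells are mostly gamma-delta cells with an invariant receptor of the Vγ5 and Vδ1 type, the dendritic epidermal T cells, which settle before birth. Alpha-beta T cells (CD4+ helper and regulatory cells and CD8+ cytotoxic cells) lie mostly in the dermis and enter inflamed skin from the blood. NK cells lack a T cell receptor and kill with the same granzymes and perforin as cytotoxic T cells. In psoriasis both IL-17A and IL-36γ act on keratinocytes, and T cells are a source of IL-17A.

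Expression is given as CPM, the read count scaled to library size after TMM normalisation, and changes as log2 fold changes ± SE with the adjusted p-value of edgeR's quasi-likelihood test. A gene is called raised or lowered where its adjusted p-value was below 0.05 and its log2 fold change was above 1 in size. After IL-17A alone, no gene of the list was called against PBS, where 1.07% of all tested genes were raised and 1.03% lowered. At an unadjusted p-value below 0.05 there were 10 of 38 genes (31.0% of all genes). DESeq2 called 2, Cd6 and Gzmb, for which no share of all genes is given. By the adjusted p-value alone, 4 genes (Cd2, Cd4, Cd28 and Thy1) were higher, against 7.44% of all genes. IL-36γ raised 14 of 38 genes (36.8%) and lowered 0, against a background of 5.11% raised and 1.98% lowered. The combination raised 16 of 38 genes (42.1%) and lowered 4 (10.5%), against 7.35% and 6.06% of all genes. Both sets of raised genes include Cd8a, Foxp3, Gzma and Ncr1, whose direction is not independent of the filter. The median log2 fold change of the list was 0.23 under IL-17A, 0.52 under IL-36γ and 0.71 with the combination, and the medians of all tested genes were 0.04, -0.02 and -0.03. The 4 lowered genes were the 4 gamma-delta receptor genes, while the raised genes came from every other group of the list. In every ear under IL-36γ, 20 of the 38 genes lay above all PBS ears and 5 below (22.4% and 19.2% of all genes), and with the combination 21 lay above and 8 below (27.0% and 25.6%). Among genes with at least 10 counts in every library, which leaves out those near 0 in PBS ears, 8 genes of the list were raised by IL-36γ and 7 by the combination. The share of all genes raised under that filter was not computed, so these counts have no background beside them. All 3 comparisons use the same PBS ears. In whole ears, fewer cells of a type and less RNA per cell cannot be told apart.

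**Figure D1:**
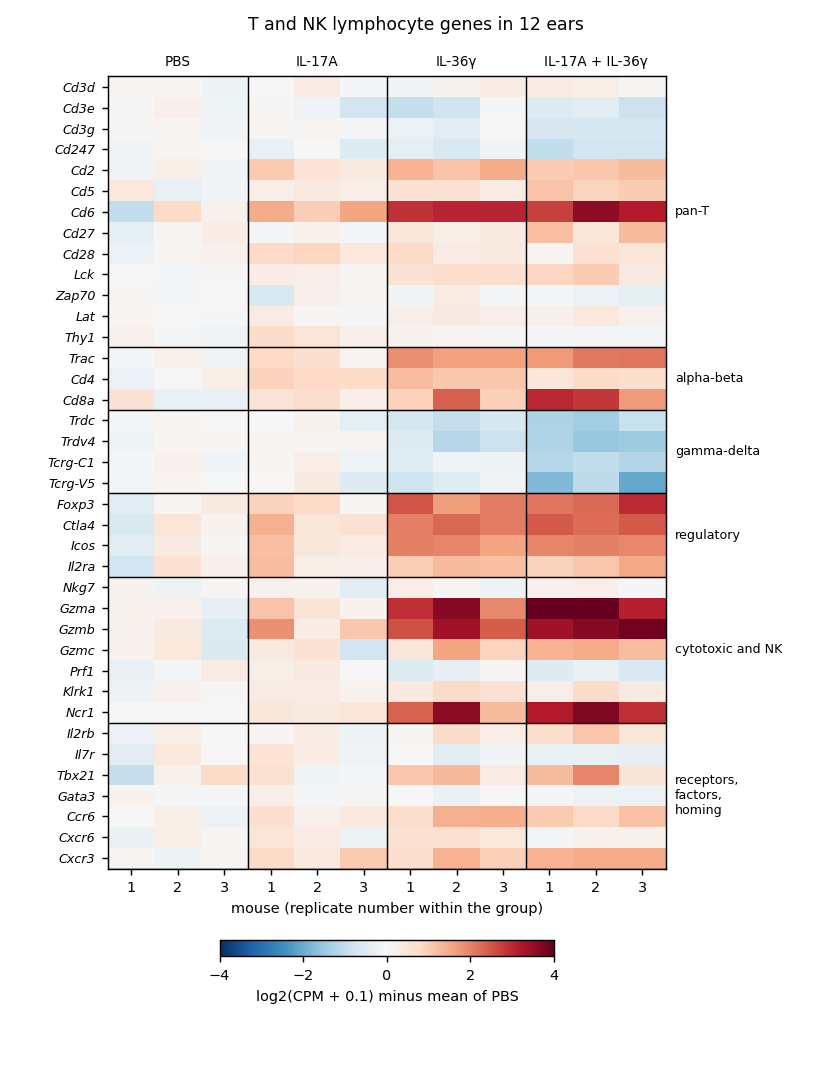
Each row is a gene and each column an ear, 3 per group, and the colour gives log2(CPM + 0.1) minus the mean of the PBS ears. Cd6, Trac, Foxp3, Ctla4, Icos, Gzma, Gzmb and Ncr1 are red in the 6 ears that received IL-36γ, the 4 gamma-delta genes are blue there, and the CD3 genes are pale or blue.

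For each group of the list with a raised gene, the 250 bases upstream of the start are shown for the member most raised by the combination among those with an entry in the RefSeq promoter table, so that the letters before genes that rose in the same ears can be set side by side. The table (build GRCm38.p6) held an entry for 26 of the 38 genes. Cd6, the most raised pan-T gene, and Trac, Trdc and Trdv4 were among those without one. The sequences run 5′ to 3′ on the strand of the gene and end at the base before the start. They lie at chr6:125237028-125237277 (Cd27, minus strand), chr6:71373177-71373426 (Cd8a, plus strand), chrX:7579426-7579675 (Foxp3, plus strand, 6032 bases inside the GENCODE gene, which begins at an upstream exon), chr7:4337474-4337723 (Ncr1, plus strand) and chrX:101734148-101734397 (Cxcr3, minus strand, whose start here also lies inside the GENCODE gene). Capitals mark the letters TGTGGT or their reverse complement ACCACA, the core that RUNX factors bind.
Cd27: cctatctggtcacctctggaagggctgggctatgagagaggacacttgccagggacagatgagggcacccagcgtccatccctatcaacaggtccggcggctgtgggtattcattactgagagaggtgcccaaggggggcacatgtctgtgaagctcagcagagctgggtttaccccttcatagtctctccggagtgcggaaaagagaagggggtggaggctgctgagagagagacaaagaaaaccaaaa
Cd8a: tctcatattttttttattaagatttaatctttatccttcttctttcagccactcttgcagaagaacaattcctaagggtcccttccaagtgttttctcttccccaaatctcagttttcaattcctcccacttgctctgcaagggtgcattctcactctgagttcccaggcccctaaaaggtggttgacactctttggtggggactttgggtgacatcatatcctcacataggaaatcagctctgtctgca
Foxp3: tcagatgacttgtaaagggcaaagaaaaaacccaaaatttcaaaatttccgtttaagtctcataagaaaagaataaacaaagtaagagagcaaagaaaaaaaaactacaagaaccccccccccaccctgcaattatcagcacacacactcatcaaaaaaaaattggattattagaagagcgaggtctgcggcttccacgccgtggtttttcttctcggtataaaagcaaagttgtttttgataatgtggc
Ncr1: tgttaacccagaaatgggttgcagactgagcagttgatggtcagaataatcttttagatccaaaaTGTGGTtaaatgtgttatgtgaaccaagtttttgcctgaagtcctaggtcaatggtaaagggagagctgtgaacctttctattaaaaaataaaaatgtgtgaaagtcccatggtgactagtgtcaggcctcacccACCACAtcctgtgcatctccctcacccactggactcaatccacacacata
Cxcr3: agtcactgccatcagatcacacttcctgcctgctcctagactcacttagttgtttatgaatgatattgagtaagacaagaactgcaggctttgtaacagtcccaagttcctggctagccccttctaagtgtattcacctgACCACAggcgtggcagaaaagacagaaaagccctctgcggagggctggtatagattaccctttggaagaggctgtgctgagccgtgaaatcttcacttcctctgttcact
In these 5 windows the RUNX core occurred 2 times before Ncr1 (185 and 50 bases before the start, counted at the first letter) and once before Cxcr3, and none of the 5 held the AP-1 letters TGANTCA or the STAT letters TTCNNNGAA on either strand. Of all 27025 genes of the promoter table, 15.9% held the RUNX letters in such a window, 7.82% the AP-1 letters and 8.13% the STAT letters. Of the 26 genes of the list these were 11 (42.3%), 1 (3.85%) and 5 (19.2%). A match of letters is a description and not a binding site.

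Among the pan-T genes, no subunit of the CD3 complex was called against PBS. IL-36γ raised 2 of 13 pan-T genes, Cd2 and Cd6, and the combination raised 4, Cd2, Cd5, Cd6 and Cd27, with none lowered, where these treatments raised 5.11% and 7.35% of all genes. The counts of the groups that follow are to be read against the same shares. The median of the 13 was 0.28 after either. Cd6, a scavenger type receptor that tunes T cell activation (ENSMUSG00000024670, chromosome 19, 10789341 to 10830058, minus strand), had 0.0277, 0.340 and 0.182 CPM in PBS ears, 0.601, 0.399 and 0.644 with IL-17A alone, 1.76, 1.98 and 2.0 with IL-36γ alone and 1.56, 2.93 and 2.17 with the combination. All IL-36γ ears lay above all PBS and IL-17A ears, and the change against PBS was 3.36 ± 0.45 at an adjusted p of 0.000369 under IL-36γ and 3.58 ± 0.44 at an adjusted p of 9.91e-05 with the combination. PBS replicate 1 held a count of 1 for Cd6.

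Cd2, an adhesion receptor shared by T and NK cells (ENSMUSG00000027863, chromosome 3, 101275899 to 101287939, minus strand), had 1.3, 1.73 and 1.33 CPM in PBS ears, 3.12, 2.16 and 1.89 with IL-17A alone, 3.96, 3.32 and 4.20 with IL-36γ alone and 3.00, 3.15 and 3.61 with the combination. The 3 IL-17A ears already lay above the PBS ears, and IL-17A replicate 1 reached the lower ears with IL-36γ. Its change was 0.72 ± 0.21 at an adjusted p of 0.0491 under IL-17A, which is not called, 1.39 ± 0.20 at an adjusted p of 0.000676 under IL-36γ and 1.16 ± 0.21 at an adjusted p of 0.000874 with the combination. Cd5, a negative regulator of receptor signals (ENSMUSG00000024669, chromosome 19, 10717116 to 10739002, minus strand), had 4.62, 2.75 and 3.15 CPM in PBS ears, 4.17, 4.46 and 4.10 with IL-17A alone, 5.19, 5.33 and 4.27 with IL-36γ alone and 7.65, 6.47 and 7.09 with the combination. It was called only in the comparison of the combination with PBS (1.01 ± 0.18 at an adjusted p of 0.000897), just past the threshold on the fold change, and the call was lost in 9 of 20 alternatives, with a log2 fold change of 0.87 to 1.26 over them. These 9 include leaving out PBS replicate 2 or 3, IL-17A replicate 1 or 2, IL-36γ replicate 1 or IL-17A + IL-36γ replicate 1.

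Cd27, a costimulatory receptor of naive T cells and of NK cells (ENSMUSG00000030336, chromosome 6, 125232622 to 125237010, minus strand), had 0.249, 0.368 and 0.455 CPM in PBS ears, 0.338, 0.399 and 0.322 with IL-17A alone, 0.532, 0.426 and 0.482 with IL-36γ alone and 0.936, 0.512 and 0.970 with the combination. The combination stood above PBS in all ears (1.17 ± 0.30 at an adjusted p of 0.00785), a call that was lost without PBS replicate 1 (0.97), and IL-36γ alone gave 0.43 (adjusted p = 0.327). Cd3g and Cd247, which encode signalling chains of CD3, had negative log2 fold changes with the combination, -0.71 ± 0.12 at an adjusted p of 0.000742 for Cd3g and -0.84 ± 0.17 at an adjusted p of 0.00166 for Cd247, and neither passed the threshold on the fold change. Cd3g stood at 9.51 ± 0.642 CPM (SD, n = 3) in PBS ears and at 5.83 ± 0.0856 with the combination, with no overlap. Of Cd247, 53.4% of the windows of 76 bases also occur in Pou2f1 or Gm16565, which overlap it, so that its counts are uncertain. Cd3d gave 0.21 ± 0.18 at an adjusted p of 0.37, and Cd3e -0.63 ± 0.26 at an adjusted p of 0.067.

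The summed level of Cd3d, Cd3e and Cd3g was 13.7 to 16.3 CPM in PBS ears and 9.70 to 10.8 CPM with the combination, with no overlap. Downstream of the receptor, the kinase gene Lck gave 0.68 ± 0.17 at an adjusted p of 0.0119 under IL-36γ and 0.79 ± 0.17 at an adjusted p of 0.00266 with the combination. Zap70 and Lat, the next kinase and its adaptor, gave -0.22 and 0.28 with the combination (adjusted p = 0.446 and 0.124). Cd28, the main costimulatory receptor, was highest under IL-17A alone (0.70 ± 0.19 at an adjusted p of 0.0394), as was Thy1 (0.48 ± 0.11 at an adjusted p of 0.0279), neither of them past the threshold on the fold change. Thy1 is also expressed by dermal fibroblasts, and at 99.4 ± 10.6 CPM in PBS ears it was the most abundant gene of the list.

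**Figure D2:**
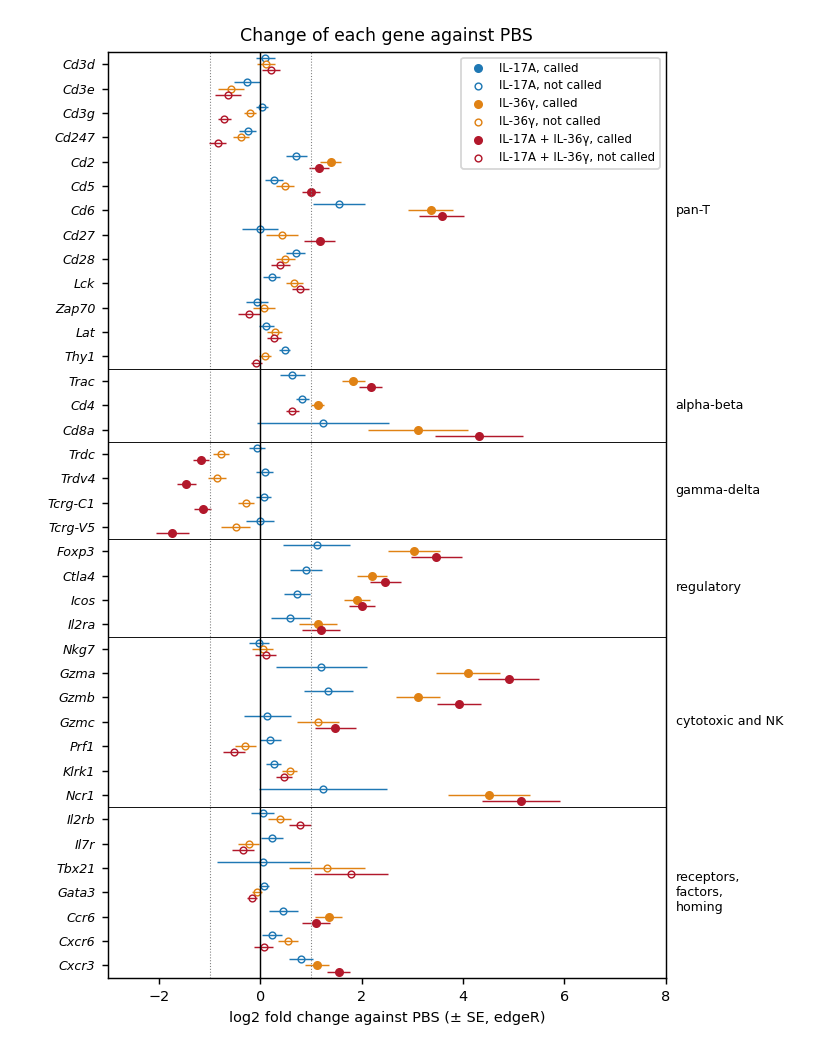
Points give the log2 fold change against PBS with its SE from edgeR for each of the 38 genes, in blue for IL-17A, orange for IL-36γ and red for IL-17A + IL-36γ. Filled points are called, open points are not, and dotted lines mark log2 fold changes of 1 and -1. No IL-17A point is filled, and the only filled points left of 0 are the 4 gamma-delta genes with the combination.

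Of the 3 genes of alpha-beta T cells, IL-36γ raised all 3 and the combination raised 2, Trac and Cd8a, with Cd4 short of the threshold on the fold change. Cd8a passed the filter on low counts only through ears with IL-36γ, so its part in these counts is not independent of the filter. Trbc1 and Trbc2, the constant regions of the receptor's beta chain, are outside the list and were not called (values below). Trac, the constant region of the receptor's alpha chain (ENSMUSG00000076928, chromosome 14, 54220521 to 54224206, plus strand), had 0.498, 0.595 and 0.455 CPM in PBS ears, 0.977, 0.864 and 0.563 with IL-17A alone, 2.06, 1.77 and 1.76 with IL-36γ alone and 1.91, 2.52 and 2.61 with the combination. The 6 ears with IL-36γ lay above the 6 ears without it. Its change was 0.64 ± 0.25 at an adjusted p of 0.11 under IL-17A, 1.84 ± 0.23 at an adjusted p of 0.000256 under IL-36γ and 2.18 ± 0.23 at an adjusted p of 3.72e-05 with the combination, and neither of the latter calls was lost in any of 20 alternatives.

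Cd8a, the coreceptor of cytotoxic T cells (ENSMUSG00000053977, chromosome 6, 71373427 to 71379173, plus strand), was close to absent from control ears, with 3, 0 and 0 counts in PBS ears, 2, 3 and 1 with IL-17A alone, 4, 18 and 4 with IL-36γ alone and 23, 21 and 9 with the combination. Over the 3 ears of a group, its ratio to PBS was 22.3 with the combination (95% counting interval 7.22 to 111) and 9.85 under IL-36γ (3.02 to 50.8), from 3 counts in PBS ears. The fitted changes were 3.11 ± 0.99 at an adjusted p of 0.0345 under IL-36γ and 4.31 ± 0.87 at an adjusted p of 0.00195 with the combination. Of the 26 counts under IL-36γ, 18 came from replicate 2, and that call was lost without it and without PBS replicate 2 or 3. Cd8b1, the partner chain of Cd8a, is named here after its values were seen and had too few counts to be tested, with 2, 8, 18 and 30 counts over the 3 ears of PBS, IL-17A, IL-36γ and the combination.

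Cd4, the coreceptor of helper and regulatory T cells (ENSMUSG00000023274, chromosome 6, 124864692 to 124888221, minus strand), which some macrophages and Langerhans cells of the mouse also express, had 4.37, 5.18 and 6.03 CPM in PBS ears, 9.96, 9.04 and 8.69 with IL-17A alone, 12.2, 10.9 and 11.0 with IL-36γ alone and 7.22, 8.81 and 8.13 with the combination. Each cytokine alone gave higher values than PBS in all ears, 0.83 ± 0.13 at an adjusted p of 0.012 under IL-17A and 1.13 ± 0.13 at an adjusted p of 0.000161 under IL-36γ, and the ears with both lay between PBS and IL-36γ (0.63 ± 0.13 at an adjusted p of 0.00242). The change by IL-17A differed between ears with and without IL-36γ: the interaction was -1.33 ± 0.19 at an adjusted p of 0.0242, the only 1 of the 38 genes called, where 0.0721% of all genes had a raised and 0.18% a lowered interaction. It was no longer called in 8 of 19 alternatives, with values from -1.43 to -1.14. These were library size only, and leaving out PBS replicate 2, IL-17A replicate 1 or 2, IL-36γ replicate 1 or 3, or IL-17A + IL-36γ replicate 1 or 2. The call under IL-36γ was lost with library size only (0.98). Of the 38 genes of the list, 31 had an interaction below 0, with a median of -0.38 against -0.07 for all tested genes. The share of all genes below 0 was not computed, so the count of 31 has no background beside it. With library size only, the median interaction of all genes was 0.11.

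**Figure D3:**
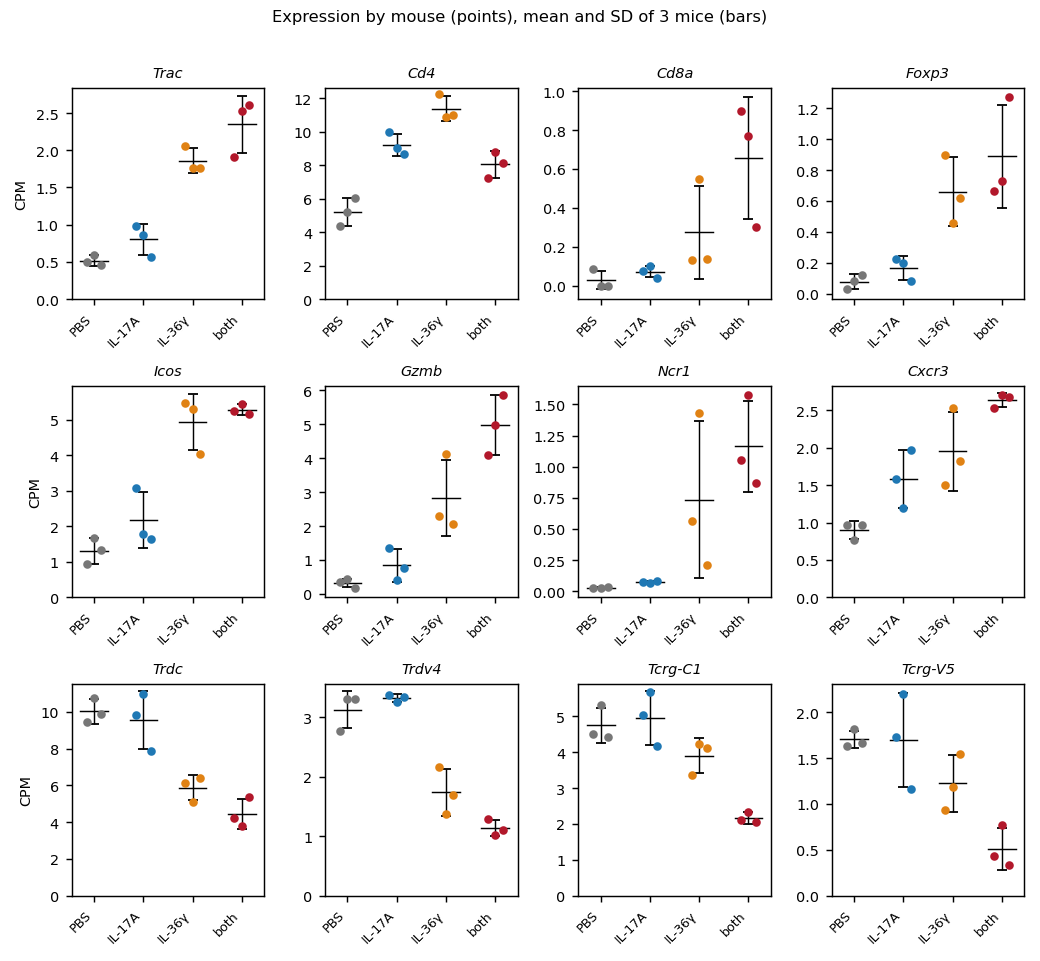
CPM of 12 genes, with a point for each ear and bars for the mean and SD of 3 mice, where both means IL-17A + IL-36γ. In the upper 2 rows the levels with IL-36γ are above PBS, with Cd4 highest under IL-36γ alone, and in the lowest row the 4 gamma-delta genes are lowest with the combination.

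The 4 gamma-delta receptor genes were the only lowered genes of the list. All 4 were lowered by the combination and none was called after either cytokine alone, and their median log2 fold change was 0.03 under IL-17A, -0.63 under IL-36γ and -1.31 with the combination. Trdc, the constant region of the delta chain (ENSMUSG00000104876, chromosome 14, 54142851 to 54148868, plus strand), had 9.44, 10.8 and 9.88 CPM in PBS ears, 9.84, 11.0 and 7.84 with IL-17A alone, 6.12, 5.09 and 6.4 with IL-36γ alone and 4.21, 3.77 and 5.35 with the combination. The 3 ears of the combination and the 3 of IL-36γ lay below all PBS and IL-17A ears, with -0.77 ± 0.16 at an adjusted p of 0.00453 under IL-36γ and -1.17 ± 0.16 at an adjusted p of 0.000184 with the combination.

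Trdv4 (ENSMUSG00000076867, chromosome 14, 54074905 to 54075515, plus strand), the variable segment of the delta chain of the epidermal cells, had 2.77, 3.31 and 3.30 CPM in PBS ears, 3.38, 3.26 and 3.34 with IL-17A alone, 2.16, 1.37 and 1.69 with IL-36γ alone and 1.29, 1.02 and 1.10 with the combination. Its change was -0.85 ± 0.18 at an adjusted p of 0.00489 under IL-36γ and -1.46 ± 0.19 at an adjusted p of 0.000117 with the combination, and no ear with IL-36γ reached an ear without it. Tcrg-V5, the variable segment of their gamma chain (ENSMUSG00000076747, chromosome 13, 19192278 to 19192725, plus strand), had 1.63, 1.81 and 1.67 CPM in PBS ears, 1.73, 2.19 and 1.17 with IL-17A alone, 0.932, 1.19 and 1.55 with IL-36γ alone and 0.429, 0.768 and 0.334 with the combination. After the combination its change was -1.74 ± 0.32 at an adjusted p of 0.00117, below every other ear, while under IL-36γ alone it was -0.48 (adjusted p = 0.222). Tcrg-C1, the constant region joined to it (ENSMUSG00000076749, chromosome 13, 19214103 to 19217024, plus strand), had 4.51, 5.32 and 4.42 CPM in PBS ears, 5.03, 5.68 and 4.18 with IL-17A alone, 3.36, 4.23 and 4.13 with IL-36γ alone and 2.11, 2.34 and 2.04 with the combination, with -0.28 ± 0.15 at an adjusted p of 0.183 under IL-36γ and -1.14 ± 0.16 at an adjusted p of 0.000211 with the combination. Tcrg-C1 shares 17.2% of its stretches of 76 bases with Tcrg-C2 or Tcrg-C3, and the counts cannot be fully separated from these. No call of these 4 genes against PBS was lost in any of 20 alternatives.

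After the combination all 4 genes lay below PBS in every ear, as did 25.6% of all genes. The difference between the combination and IL-36γ alone was not called for any of the 4, with log2 fold changes of -0.40, -0.61, -0.85 and -1.26 and adjusted p-values of 0.285, 0.193, 0.0927 and 0.14 for Trdc, Trdv4, Tcrg-C1 and Tcrg-V5, and DESeq2 called Tcrg-V5. Marker genes of other cells moved in the same ears. The sum of 7 keratinocyte genes was 11950.0 to 17370.0 CPM in PBS ears and 31570.0 to 40110.0 CPM with the combination, and that of 8 neutrophil genes 13.1 to 89.2 and 7606 to 10040.0 CPM. The neutrophil sum is carried by S100a8 and S100a9, at 3359 ± 354 and 4975 ± 960.4 CPM with the combination, which keratinocytes and macrophages also express, while Ly6g, which defines neutrophils, held 0 counts in every PBS ear and 22, 15 and 18 counts with the combination. The 8 genes of skeletal muscle had a median log2 fold change of -1.72, and 1 of them was called lower. Their part in the lower values was not tested.

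A ratio within an ear is free of the scaling between libraries. The log2 ratio of Trac to Trdc counts was -4.21, -4.15 and -4.40 in PBS ears, -3.31, -3.64 and -3.75 under IL-17A, -1.56, -1.52 and -1.86 under IL-36γ and -1.13, -0.57 and -1.03 with the combination. The 4 groups did not overlap. With IL-36γ the ratio was 2.63 higher than without it, averaged over the ears with and without IL-17A (exact permutation test within these strata, two-sided p = 0.005, the smallest that 400 arrangements allow). Against Tcrg-C1 in place of Trdc, the difference was 2.42 (p = 0.005 by the same exact test). Trac, Trdc and Tcrg-C1 were already called in these same ears, so neither p-value is support independent of those calls. Against Trdc, Cd3e gave only 0.46 (exact permutation p = 0.08). With the combination Trac rose and Trdc fell, and the ratio does not say which share of its change either has.

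**Figure D4:**
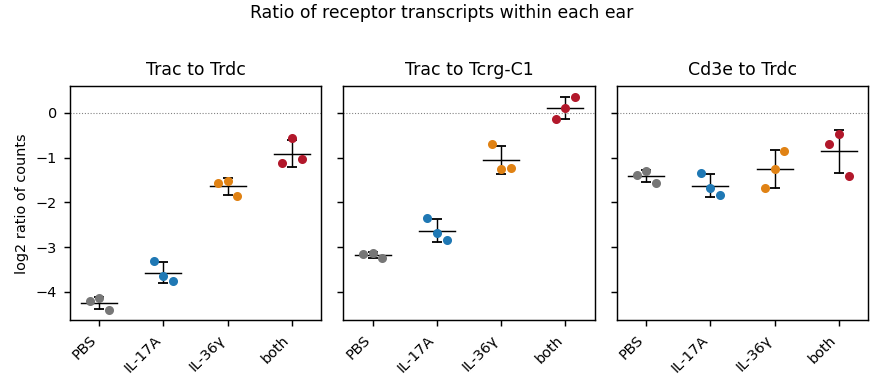
Log2 ratios of counts within each ear (points) with mean and SD of 3 mice per group, where both means IL-17A + IL-36γ. The ratio of Trac to either gamma-delta gene is higher in the 6 ears with IL-36γ than in the 6 without it, and that of Cd3e to Trdc overlaps between groups.

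All 4 regulatory T cell genes were raised by IL-36γ and by the combination, and none was called under IL-17A, with medians of 0.82, 2.05 and 2.24 under IL-17A, IL-36γ and both. Foxp3 passed the filter on low counts only through ears with IL-36γ, so its part in these counts and medians is not independent of the filter. Foxp3, the transcription factor that defines regulatory T cells (ENSMUSG00000039521, chromosome X, 7573644 to 7595245, plus strand), had 1, 3 and 4 counts in PBS ears, 6, 6 and 2 with IL-17A alone, 27, 15 and 18 with IL-36γ alone and 17, 20 and 38 with the combination. Its change was 3.03 ± 0.51 at an adjusted p of 0.00155 under IL-36γ and 3.48 ± 0.50 at an adjusted p of 0.000224 with the combination, and the 6 ears with IL-36γ lay above the 6 without. It shares 18.8% of its windows of 76 bases with Ccdc22, Ppp1r3f, Gm36995 and Flicr, which overlap it. Ccdc22 held 59 to 65 counts in PBS ears and 49 to 70 with the combination, Ppp1r3f 64 to 86 and 40 to 48, Gm36995 12 to 24 and 9 to 15, and Flicr 0 to 8 and 4 to 5. The part of these genes in the Foxp3 counts was not tested.

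Ctla4, an inhibitory receptor that regulatory cells carry constantly and other T cells on activation (ENSMUSG00000026011, chromosome 1, 60887000 to 60915832, plus strand), had 0.415, 0.991 and 0.758 CPM in PBS ears, 1.99, 0.997 and 1.09 with IL-17A alone, 3.06, 3.75 and 3.17 with IL-36γ alone and 4.21, 3.62 and 4.18 with the combination. Its change was 2.20 ± 0.30 at an adjusted p of 0.000417 under IL-36γ and 2.47 ± 0.30 at an adjusted p of 8.75e-05 with the combination. Icos, a costimulatory receptor of activated T cells (ENSMUSG00000026009, chromosome 1, 60977927 to 61000320, plus strand), had 0.941, 1.67 and 1.33 CPM in PBS ears, 3.08, 1.79 and 1.65 with IL-17A alone, 5.46, 5.30 and 4.03 with IL-36γ alone and 5.23, 5.45 and 5.15 with the combination. It changed by 1.90 ± 0.25 at an adjusted p of 0.000371 and 2.0 ± 0.25 at an adjusted p of 0.000113. For both genes the lowest ear with IL-36γ stood above the highest ear without it.

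Il2ra, the high affinity subunit of the IL-2 receptor (ENSMUSG00000026770, chromosome 2, 11642807 to 11693193, plus strand), had 0.415, 1.22 and 0.909 CPM in PBS ears, 1.99, 0.931 and 0.925 with IL-17A alone, 1.63, 2.04 and 1.93 with IL-36γ alone and 1.56, 1.79 and 2.44 with the combination. Here IL-17A replicate 1 lay among the ears with IL-36γ, and the changes were smaller, 1.14 ± 0.37 at an adjusted p of 0.038 under IL-36γ and 1.19 ± 0.37 at an adjusted p of 0.0216 with the combination. The call under IL-36γ was lost in 8 of 20 alternatives (log2 fold change 0.81 to 1.5), among them leaving out PBS replicate 1 or 3, any IL-36γ replicate, or IL-17A + IL-36γ replicate 2. The call with the combination was lost without PBS replicate 1 or 3 or IL-17A + IL-36γ replicate 3.

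Among cytotoxic and NK genes, granzymes and Ncr1 were called and perforin was not. IL-36γ raised 3 of 7 (Gzma, Gzmb and Ncr1), and the combination raised 4, with Gzmc. Gzma and Ncr1 passed the filter on low counts only through ears with IL-36γ, so their part in these counts is not independent of the filter. Ncr1, the activating receptor NKp46 of NK cells and some innate lymphoid cells (ENSMUSG00000062524, chromosome 7, 4337724 to 4345164, plus strand), had 1, 1 and 1 counts in PBS ears, 2, 2 and 2 with IL-17A alone, 17, 47 and 6 with IL-36γ alone and 27, 43 and 26 with the combination. Over the 3 ears the ratio to PBS was 26.5 under IL-36γ (95% counting interval 8.71 to 132) and 40.3 with the combination (13.4 to 199). Within IL-36γ, replicate 2 held 47 of 70 counts. The fitted changes were 4.51 ± 0.80 at an adjusted p of 0.00203 and 5.15 ± 0.76 at an adjusted p of 0.000278. This is the gene with 2 RUNX letter matches in the window printed above.

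Gzma, a granzyme of NK and cytotoxic T cells (ENSMUSG00000023132, chromosome 13, 113093825 to 113100981, minus strand), had 0.0830, 0.0849 and 0.0303 CPM in PBS ears, 0.263, 0.133 and 0.0805 with IL-17A alone, 1.13, 1.95 and 0.516 with IL-36γ alone and 2.54, 2.56 and 1.3 with the combination. The lowest ear with IL-36γ stood above the highest ear without it, and the changes were 4.09 ± 0.63 at an adjusted p of 0.000923 and 4.90 ± 0.61 at an adjusted p of 9.61e-05 under IL-36γ and the combination. Gzmb, the granzyme that triggers apoptosis in the target cell (ENSMUSG00000015437, chromosome 14, 56258838 to 56262260, minus strand), had 0.360, 0.425 and 0.182 CPM in PBS ears, 1.35, 0.399 and 0.764 with IL-17A alone, 2.3, 4.11 and 2.07 with IL-36γ alone and 4.10, 4.97 and 5.85 with the combination. Its change was 1.34 ± 0.49 at an adjusted p of 0.088 under IL-17A, 3.11 ± 0.43 at an adjusted p of 0.000489 under IL-36γ and 3.92 ± 0.43 at an adjusted p of 4.56e-05 with the combination. Gzmc, from the same cluster on chromosome 14 (ENSMUSG00000079186, chromosome 14, 56231441 to 56234656, minus strand), had 0.471, 0.595 and 0.242 CPM in PBS ears, 0.564, 0.665 and 0.201 with IL-17A alone, 0.599, 1.43 and 0.861 with IL-36γ alone and 1.25, 1.35 and 1.10 with the combination. It was called with the combination (1.48 ± 0.41 at an adjusted p of 0.012), a call that was lost without PBS replicate 3. Under IL-36γ alone it gave 1.14 ± 0.42 at an adjusted p of 0.0592, above PBS in all ears, and was called there by DESeq2, with a replicate block, and without IL-17A replicate 3 or IL-36γ replicate 1. It shared no window of 76 bases with another gene.

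Prf1, the pore former that delivers granzymes, gave -0.52 ± 0.21 at an adjusted p of 0.0652 with the combination, with 3.19 ± 0.741 CPM (SD, n = 3) in PBS ears and 2.23 ± 0.268 with the combination. Nkg7, a granule protein, gave 0.05 and 0.11 under IL-36γ and both (adjusted p = 0.878 and 0.684). Klrk1, the receptor NKG2D that NK, CD8+ and epidermal gamma-delta T cells use, gave 0.58 ± 0.15 at an adjusted p of 0.0156 under IL-36γ and 0.47 ± 0.15 at an adjusted p of 0.0275 with the combination, short of the threshold on the fold change. With Ncr1 the IL-36γ replicate 2 also stood highest in its group for Gzma, Gzmb, Gzmc, Klrk1 and Il2rb.

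Of 7 cytokine receptors, subset factors and homing receptors, both IL-36γ and the combination raised 2, Ccr6 and Cxcr3. Cxcr3, the receptor for interferon-induced chemokines on effector T and NK cells (ENSMUSG00000050232, chromosome X, 101731535 to 101734269, minus strand), had 0.969, 0.764 and 0.970 CPM in PBS ears, 1.58, 1.20 and 1.97 with IL-17A alone, 1.5, 2.53 and 1.82 with IL-36γ alone and 2.54, 2.71 and 2.67 with the combination. The 3 PBS ears were lowest, and the change was 0.80 ± 0.24 at an adjusted p of 0.0536 under IL-17A, 1.11 ± 0.24 at an adjusted p of 0.00529 under IL-36γ and 1.55 ± 0.23 at an adjusted p of 0.00032 with the combination. The call under IL-36γ was lost with library size only and without IL-36γ replicate 2 (0.88 to 1.25 over the alternatives). Ccr6, the receptor of CCL20 on IL-17 producing T cells and on B cells (ENSMUSG00000040899, chromosome 17, 8236043 to 8257141, plus strand), had 0.554, 0.679 and 0.455 CPM in PBS ears, 0.939, 0.632 and 0.764 with IL-17A alone, 0.965, 1.68 and 1.69 with IL-36γ alone and 1.25, 1.02 and 1.37 with the combination. It changed by 1.35 ± 0.27 at an adjusted p of 0.00373 under IL-36γ and 1.10 ± 0.27 at an adjusted p of 0.00668 with the combination, the latter lost without PBS replicate 3 and with library size only.

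Il2rb, the subunit of the IL-2 and IL-15 receptors, gave 0.78 ± 0.22 at an adjusted p of 0.014 with the combination. Il7r, the receptor for the survival factor IL-7, gave -0.33 ± 0.21 at an adjusted p of 0.223, and Cxcr6, the receptor of CXCL16, 0.55 ± 0.19 at an adjusted p of 0.0493 under IL-36γ and 0.07 ± 0.19 at an adjusted p of 0.802 with the combination. Tbx21, which encodes T-bet and directs type 1 and cytotoxic programmes, held 0 to 7 counts per PBS ear and 5 to 17 per ear of the combination, with 1.79 ± 0.73 at an adjusted p of 0.0629. Gata3, which directs type 2 cells and is also expressed in keratinocytes and hair follicles, stood at 71.8 ± 6.26 CPM in PBS ears and gave -0.16 ± 0.10 at an adjusted p of 0.202 with the combination.

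Set against IL-17A alone instead of PBS, the combination raised 11 of the 38 genes (28.9%) and lowered 4 (10.5%), against 4.46% and 4.49% of all genes. Of those raised, Cd8a, Foxp3, Gzma and Ncr1 passed the filter on low counts only through ears with IL-36γ. Their part in this count is not independent of the filter. The raised genes were Cd6, Cd27, Trac, Cd8a, Foxp3, Ctla4, Icos, Gzma, Gzmb, Gzmc and Ncr1, and the lowered ones again Trdc, Trdv4, Tcrg-C1 and Tcrg-V5. The gamma-delta changes were -1.10, -1.55, -1.20 and -1.74 in this order, and Trdc missed the threshold on the fold change, at -0.97 and -0.98, without IL-17A replicate 2 or IL-17A + IL-36γ replicate 2. Gzmc lost its call here without IL-17A replicate 3 or IL-17A + IL-36γ replicate 1 or 2.

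IL-36γ against IL-17A raised 8 of 38 genes (21.1%) and lowered 0, against 1.25% and 0.366% of all genes. They were Cd6, Trac, Foxp3, Ctla4, Icos, Gzma, Gzmb and Ncr1, with log2 fold changes from 1.18 (Icos) to 3.27 (Ncr1). Foxp3, Gzma and Ncr1 passed the filter on low counts only through ears with IL-36γ. Their part in this count and range is not independent of the filter. The number of calls depended on single ears: none was left without IL-17A replicate 2, 1 without IL-36γ replicate 2 and 3 without IL-17A replicate 3. In these refits the calls were lost on the adjusted p-value, and over all alternatives the log2 fold change was 1.63 to 1.94 for Cd6, 1.61 to 2.16 for Foxp3 and 1.01 to 1.38 for Trac. The combination against IL-36γ called none of the 38, against 0.0% of all genes raised and 0.0103% lowered, although 11 had an unadjusted p-value below 0.05 (15.1% of all genes), and DESeq2 called 1, Tcrg-V5. The median of the 38 was 0.02. Largest among them were -1.26 for Tcrg-V5, 1.20 for Cd8a and -0.85 for Tcrg-C1.

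Levels can be compared between genes only per length. Thy1 and Gata3, at 33.2 and 18.0 CPM per kb of exon in PBS ears, stood above all other genes of the list. They were followed by the gamma-delta genes Trdv4 (7.05), Tcrg-C1 (5.14) and Tcrg-V5 (5.00), while Trac was at 0.552 and Foxp3 at 0.0170 CPM per kb. After the combination Gzmb (3.46) and Nkg7 (2.62) followed Thy1 and Gata3, with Trdv4 at 2.56, Trac at 2.51 and Tcrg-C1 at 2.34 CPM per kb. Trac per kb of exon thus went from below each of the 4 gamma-delta genes to the level of Trdv4.

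Further genes of the same pathways were read from lists that accompany the 38 genes, and their counts with the combination stand beside the 7.35% of all genes raised and 6.06% lowered. Of 26 genes of T cell receptor signalling, 25 were tested, and the combination raised 6 and lowered 0. The largest were Ubash3a (2.61), a phosphatase of T cells, Slamf1 (2.39) and Vav1 (1.59), of which Vav1 is shared by other leukocytes. Among 11 other receptor genes, 4 had enough counts and none was called, and the constant regions of the beta chain gave -0.12 (Trbc1) and 0.34 (Trbc2, adjusted p = 0.0823), while Trac of the alpha chain was called. Of the other gamma chain constant regions, Tcrg-C4 gave -0.93 ± 0.27 at an adjusted p of 0.0157, below PBS in every ear and short of the threshold on the fold change, and Tcrg-C2 -0.34 ± 0.26 at an adjusted p of 0.317. Of 14 further regulatory T cell genes, 6 were raised by the combination, led by Tigit (2.81), Il10 (2.13) and Areg (1.75). Il10 was also raised under IL-17A alone (1.74 ± 0.42 at an adjusted p of 0.0292).

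For epidermal resident gamma-delta T cells, 12 of 13 further genes were tested, and the combination raised 2 (Il2rg, 1.58, and Cd69, 1.07) and lowered 1, Xcl1. By the adjusted p-value alone 5 of the 12 were lower (20.9% of all genes), and 6 lay below PBS in every ear (25.6%). Xcl1, a chemokine of epidermal T cells and NK cells that attracts cross-presenting dendritic cells, had 1.41, 1.56 and 1.67 CPM in PBS ears, 2.67, 2.46 and 1.85 with IL-17A alone, 0.466, 0.548 and 0.448 with IL-36γ alone and 0.234, 0.402 and 0.301 with the combination. It gave -1.65 ± 0.22 at an adjusted p of 0.000392 under IL-36γ and -2.29 ± 0.24 at an adjusted p of 3.97e-05 with the combination. Itgae, the integrin chain CD103 that binds E-cadherin in the epidermis, gave -0.40 ± 0.10 at an adjusted p of 0.00572. Of 19 NK and cytotoxic genes 12 were tested, with 4 raised, led by the chemokine genes Ccl4 (2.61) and Ccl5 (2.58), and Xcl1 lowered. Eomes, a transcription factor of NK cells that is named here after its values were seen, had 1, 4, 22 and 23 counts over the 3 ears of PBS, IL-17A, IL-36γ and both, and was not tested.

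Of 16 effector cytokine genes 6 could be tested, and the combination raised Il22 (5.16), Il17f (2.80) and Tnf (1.12). Il22, a cytokine of T cells and innate lymphoid cells that drives keratinocyte growth, had 0, 1 and 0 counts in PBS ears, 1, 0 and 0 with IL-17A alone, 5, 39 and 11 with IL-36γ alone and 18, 13 and 9 with the combination. It thus passed the filter on low counts only through ears with IL-36γ, and its direction is not independent of the filter. Its ratio to the 1 count of the PBS ears was 50.4 with the combination (95% counting interval 8.54 to 2040.0), and IL-36γ replicate 2 was highest. Il17a had 0, 0, 7 and 7 counts over the 3 ears of PBS, IL-17A, IL-36γ and both, and Ifng 0, 1, 3 and 6, so that neither was tested at this depth. Whether other genes of the accompanying lists passed the filter only through ears with IL-36γ was not checked.

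Chemokines that attract lymphocytes were tested for 10 of 13 genes, with 3 raised by the combination (Cxcl9, 3.50; Cxcl10, 3.05; Ccl8, 2.31) and 1 lowered (Ccl27a, a keratinocyte chemokine, -2.20). Cxcl9 and Cxcl10 are ligands of CXCR3, and Cxcl9 had 0.498, 0.906 and 0.515 CPM in PBS ears, 1.13, 0.831 and 1.21 with IL-17A alone, 2.13, 6.70 and 2.82 with IL-36γ alone and 1.60, 16.7 and 3.54 with the combination, with IL-17A + IL-36γ replicate 2 far above the rest. Ccl20, the ligand of CCR6, gave 2.57 ± 0.66 at an adjusted p of 0.0139 under IL-36γ and 1.17 ± 0.67 at an adjusted p of 0.174 with the combination. Cxcl16, the ligand of CXCR6, gave 0.70 ± 0.10 at an adjusted p of 0.000296. Of 18 antigens and ligands of skin lymphocytes 16 were tested, and the combination raised 3 (Cd80, 1.36; Cd274, 1.12; Ulbp1, 1.49) and lowered Skint9 (-1.08). Skint1, which selects the epidermal gamma-delta cells in the thymus, gave -0.29 ± 0.13 at an adjusted p of 0.1, the NKG2D ligand H60c 0.75 ± 0.13 at an adjusted p of 0.000605 and the lymphocyte survival factor Il15 0.07 ± 0.09 at an adjusted p of 0.563.

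**Figure D5:**
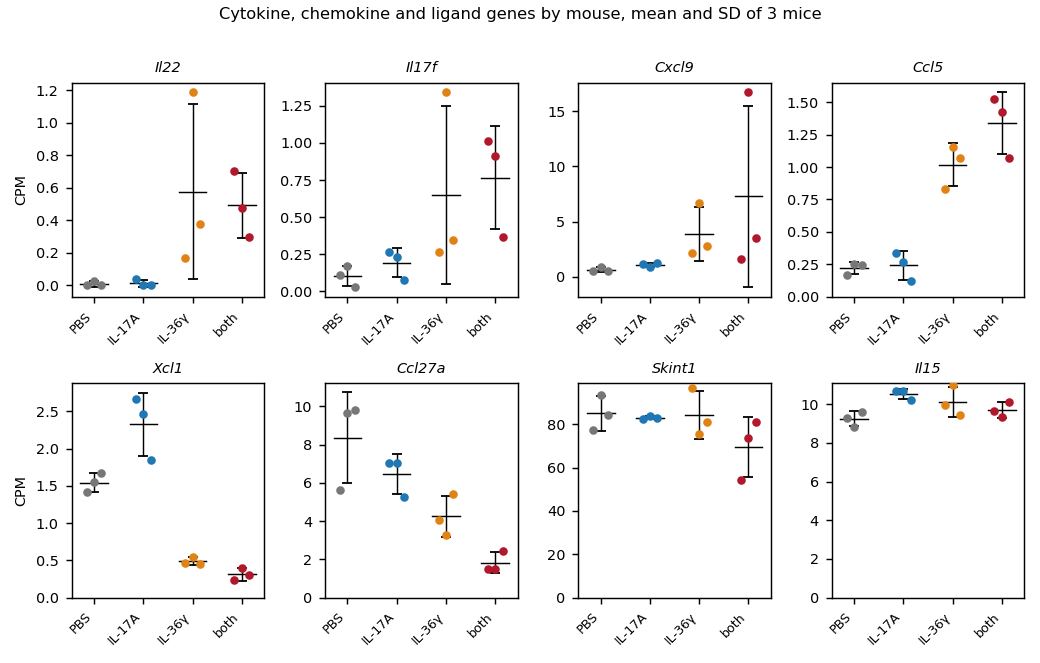
CPM of 8 cytokine, chemokine and ligand genes, with a point for each ear and bars for the mean and SD of 3 mice, where both means IL-17A + IL-36γ. Il22, Il17f, Cxcl9 and Ccl5 are higher in ears with IL-36γ, Xcl1 is lower there, Ccl27a is lowest with the combination, and group means of Il15 lie between 9.25 and 10.5 CPM.

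Markers of other cells moved in the same ears. The combination raised 8 of 8 neutrophil genes (S100a9, S100a8 and Ly6g most), 8 of 10 macrophage and monocyte genes (Ly6c2, 4.88; Fcgr1, 3.06; Ccr2, 2.11), 4 of 7 keratinocyte genes (Krt16, 5.85; Krt6a, 4.27; Krt1, 4.21) and 10 of 10 proliferation genes (Plk1, 2.54; Birc5, 2.15; Ccnb1, 2.13). The macrophage sum was 690.4 to 826 CPM in PBS ears and 1692 to 1888 CPM with the combination. Of the dendritic and Langerhans cell genes 1 of 10 was raised (Ccr7, 1.49) and 1 lowered, Cd207, which marks Langerhans cells (-3.28 ± 0.33 at an adjusted p of 3.25e-05). Of 9 B cell genes 4 were tested and all 4 raised, led by Cd79b (2.81), Cd22 (2.26) and Ighm (1.34), with a summed level of 12.1 to 14 CPM in PBS ears and 28.8 to 37.8 CPM with the combination. The defining genes Cd79a, Ms4a1 and Pax5 had 7, 1 and 0 counts over the 3 ears of the combination. None of 7 mast cell and 6 fibroblast genes was called. Skeletal muscle genes, with 1 of 8 lowered (Myh1, -1.56), summed to 389 to 3293 CPM in PBS ears, where replicate 1 was lowest, and to 242 to 1276 CPM with the combination. Their median log2 fold change against PBS was 0.25 under IL-17A, -0.39 under IL-36γ and -1.72 with the combination (from -3.03 to -1.42), and 5 of the 8 were called lower with the combination than with IL-17A alone. The part of these cells in the changes of the lymphocyte genes was not tested.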

How the data were processed

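RNA of a part of each ear was sequenced as rRNA-depleted, stranded total RNA in read pairs of 76 bases. Per the labels and the study's methods, alignment by the authors used STAR 2.5.2b and mm10, genes were counted with featureCounts of Subread 1.5.1, and the deposited table holds raw counts for 50684 genes in 12 libraries. The strand setting of the counting is not given in the sources used here. The deposited comparison tables hold fold changes and p-values computed by the authors with DESeq2 1.30.0, of which only the gene symbols were used.

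Genes were filtered with filterByExpr (minimum count 10), scaled by TMM and fitted over all 12 libraries with edgeR 4.0.16 (quasi-likelihood test, Benjamini-Hochberg adjustment over 19408 genes). SE is the log2 fold change divided by the square root of F. The fit was tested on simulated data. The common biological coefficient of variation was 14.2%. The p-values of edgeR rest on the spread between mice within groups, 3 mice per group. That spread was estimated over all 12 libraries and shared in part across genes. The log2 ratio of counts used a prior count of 0.5. Counting intervals are 95% and cover counting error only. Shared windows of 76 bases and gene coordinates come from GENCODE mouse release 21 (GRCm38), and promoters from RefSeq. Deviations from the group means of same-numbered mice correlated at 0.13, 0.19 and 0.24 between IL-36γ and the combination. Differently numbered mice were not compared, so these values cannot show whether the numbers pair the mice, and no label says so. Over all pairs of groups the correlations ran from -0.20 to 0.35, and no other pair of groups had all 3 above 0.1. Alternatives were DESeq2 1.42.0, other scalings, filters and thresholds, a replicate block, and leaving out each library.

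The 38 genes and the lists beside them were chosen with earlier results of these data known. Genes of the list called in any comparison are given with all libraries. Of the other lists at most 3 genes with the largest change among those called with the combination against PBS are named, together with Cxcl9, Cxcl10, Cxcl16, Ccl20, Itgae, Skint1, H60c, Il15, Il17a, Il22 and Ifng. Outside this rule, and after their values were seen, Trbc1, Trbc2, Tcrg-C2, Tcrg-C4, Ccl27a, Skint9, Cd8b1, Eomes, Cd79a, Ms4a1 and Pax5 are named as well.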

Additional observations from a re-analysis of the deposited data

Results flagged for a closer look

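Cd4 was singled out because its change by IL-17A differed between ears with and without IL-36γ. The interaction was -1.33 on the log2 scale (edgeR quasi-likelihood test, adjusted p = 0.0242), with 5.20 ± 0.829 CPM in PBS ears, 9.23 ± 0.654 under IL-17A, 11.4 ± 0.754 under IL-36γ and 8.05 ± 0.801 with the combination (SD, n = 3). All IL-17A ears lay above all PBS ears, and all ears of the combination lay below all IL-36γ ears. The call was lost in 8 of 19 alternatives. Markers of macrophages and of Langerhans cells, which can express Cd4, moved in the same ears. The median interaction of 10 macrophage and monocyte genes was -0.88, with 3 lower by the adjusted p-value alone. That of 10 dendritic and Langerhans cell genes was -0.55, with 1 lower, and that of all tested genes -0.07. No gene of these 2 lists was called. Medians of the other cell lists were below 0 as well, from -1.56 for skeletal muscle and -1.16 for neutrophils to -0.098 for fibroblasts. A negative median is thus not particular to macrophages and Langerhans cells. The part of any of these cells in the Cd4 values was not tested.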

How the results depend on the processing

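No call changed direction in any alternative. Of 14 genes raised by IL-36γ against PBS, refits without 1 library kept 158 of 168 calls and other settings 100 of 104, and for the 20 genes called with the combination these were 228 of 240 and 147 of 151. The refits without 1 library include those that left out an ear of a group not compared, where both compared groups stayed whole. With at least 10 counts in every library, fewer genes are tested. The raised genes were then 8 for IL-36γ and 7 for the combination against PBS. They were 3 for the combination and 3 for IL-36γ against IL-17A. Shares of all genes under this filter were not computed. DESeq2 raised 2 genes for IL-17A against PBS, lowered 1 for the combination against IL-36γ and 2 in the interaction. Without a fold change threshold, IL-17A raised 4 against PBS, where 7.44% of all genes were raised. Under the same rule IL-36γ lowered 2 against PBS and 2 against IL-17A, and the combination lowered 8 against IL-17A. For these counts, those of DESeq2 and those of the other alternatives, no share of all genes is given. They are therefore not results about the list. With library size only, IL-36γ lowered 1 (Trdv4) and the interaction had 0, and the median of all genes moved to -0.17 for the combination, -0.16 for IL-36γ and -0.13 for IL-17A against PBS, and to 0.11 for the interaction. Leaving out single libraries gave 0 to 1 lowered genes for IL-36γ against PBS (1 without IL-36γ replicate 1), 0 to 8 raised and 0 to 1 lowered for IL-36γ against IL-17A (1 lowered without IL-36γ replicate 1), and 0 to 1 for the interaction. The cause of these moves was not tested. The log2 ratio difference was 0.46 with Cd3e in place of Trac, and 2.54 to 2.69 without single libraries. The replicate block, used because mice share numbers, left none of the 38 genes called for the combination against IL-36γ, as without it. With it, IL-36γ raised 15 genes, and the combination raised 16 and lowered 4 against PBS. The block does not enter the ratio difference, which is 2.63 either way. It changes only the arrangements of the test (exact permutation p = 0.03125, the smallest that these allow). Genes with under 10 counts per ear, such as Cd8a, Ncr1 and Foxp3 in PBS ears, have fold changes of wide error at this depth.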
